A study of Mus musculus with 5 samples.

Results

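The Z-disc is the dense line that bounds each sarcomere and anchors the ends of the thin filaments and of titin. The 10 genes described here encode proteins of this structure or proteins that link it to the sensing of stretch, together with Lrrc10, a leucine-rich repeat protein of heart muscle. They were taken by gene symbol from the deposited count table, where all 10 had 1 row each among 40624 genes. All 10 also passed the filter on low counts, which left 17835 tested genes. RNA was measured by sequencing of polyA RNA from atria of C57BL/6 mice at postnatal day 1. Every library came from tissue that carried SLN-Cre, a Cre recombinase driven from the sarcolipin gene, whose expression in the heart is mainly that of atrial muscle cells. The 3 control libraries (controls 2, 4 and 6) carried this Cre with 1 floxed and 1 wild-type Nkx2-5 allele, so they were not free of Cre or of a floxed allele. The 2 mutant libraries (mutants 5 and 7) carried the Cre with Nkx2-5-flox/flox. Cells of the atrium that do not express the Cre keep Nkx2-5 in both groups. The sources used here do not say whether each library came from its own animal or from pooled atria. The p-values therefore measure only how far these libraries spread.

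Nkx2-5 is a homeodomain transcription factor that heart muscle cells need for their development. Z-disc proteins form a layered scaffold: myozenins and telethonin (Tcap) tie alpha-actinin and titin to signalling proteins such as the phosphatase calcineurin, Xin proteins bind actin filaments near the intercalated disc, and ankyrin repeat proteins of the MARP family (Ankrd1, Ankrd2, Ankrd23) bind titin and can move to the nucleus when muscle is stretched. Genes of this group are widely used as readouts of mechanical load in the heart.

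Library totals were 58501214 to 60899334 gene counts in the controls, against 78841494 in mutant 5 and 69648013 in mutant 7. Nkx2-5 stood at 76.7, 72.0 and 71.3 CPM (counts relative to the size of the library) in controls 2, 4 and 6 and at 5.79 CPM in mutant 5 and 5.21 CPM in mutant 7, so the labels matched the targeted gene. Levels of general cardiomyocyte markers summed to 57845 to 61193 CPM in the controls and to 65910 and 60421 CPM in the mutants. Both rows of Tnnc1, in that list, were near 0 (at most 0.31 CPM), while Actc1, Myl7 and Tnnt2 were abundant in every library. Of the 12 tested genes of that list, 4 had positive and 8 had negative log2 fold changes, mutant over control. Cox6a2 (-0.42) fell and 0 genes rose. Mb had means of 164 CPM in the controls and 107 CPM in the mutants and did not pass (adjusted p = 0.13, edgeR). The fibroblast list summed to 10639 to 12100 CPM in the controls and to 8465 and 8626 CPM in the mutants, and 3 of its 8 genes fell. The epicardial list summed to 972 to 1145 CPM in the controls and to 670 and 667 CPM in the mutants, and 5 of its 6 genes fell. By the same test, described below, 3.02% of all tested genes rose and 3.57% fell. In whole tissue, fewer cells of a type and less RNA per cell cannot be told apart.

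Among the 10 genes, Lrrc10 fell to 16.8% of its control level, and Myoz1, Myoz2, Xirp2 and Ankrd23 rose 1.45-fold to 1.76-fold. Ankrd1, Ankrd2, Csrp3, Tcap and Xirp1 did not pass the test. Genes were tested with the quasi-likelihood method of edgeR, adjusted over all tested genes after Benjamini and Hochberg, at a threshold of 0.05. By the same rule 3.02% of all tested genes were higher, 3.57% were lower, and 6.58% were called in either direction. The median log2 fold change, mutant over control, was 0.41 over the 10 genes and 0.01 over all tested genes. These genes, and the lists used further on, were chosen with earlier results of these data known. Their shares and medians beside those of all tested genes are therefore no test of the sets. In 5 of the 10 genes both mutants lay above all controls, as they did in 18.6% of tested genes. In 3 of the 10 both mutants lay below all controls, as they did in 19.2% of tested genes; either pattern held in 37.9%. Of the 10 genes, 4 (Lrrc10, Myoz1, Myoz2 and Xirp2) had an adjusted p under 0.05 in the authors' deposited table, as did 4.54% of the genes with a value there. The count of 4 rises was 1 without control 4, 1 without control 6 and 2 without mutant 7. Over all genes the rises went from 538 to 203, 327 and 399 in the same settings. Without control 6 the log2 fold changes were 0.62 for Myoz1, 0.80 for Xirp2 and 0.73 for Ankrd23, close to those with all libraries, so there the calls were lost and not the size of the differences. Without control 4 the values of these 3 genes were 0.51, 0.77 and 0.81. Without mutant 7 they were 0.54, 0.56 and 0.45. Those of Xirp2 and Ankrd23 were then smaller than the 0.81 and 0.73 with all libraries. Lrrc10 and Myoz2 passed without any 1 library.

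**Figure D1:**
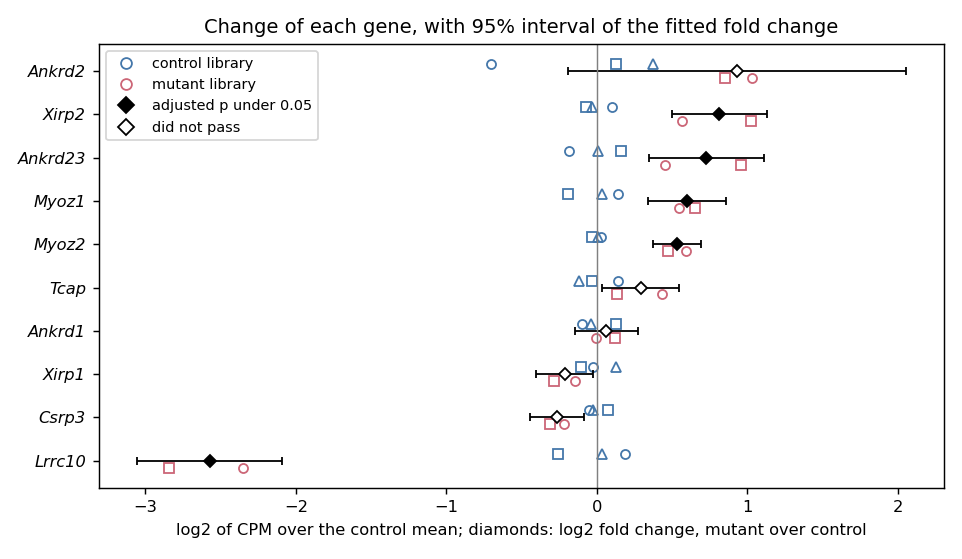
Change of the 10 genes. Circles, squares and triangles are libraries, as the log2 of CPM over the mean of the controls (blue, controls; red, mutants). Diamonds are fitted log2 fold changes with 95% intervals, filled where adjusted p was under 0.05. Lrrc10 stands alone at -2.57, while the 4 other filled diamonds lie between 0.53 and 0.81.

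Lrrc10 encodes a leucine-rich repeat protein found in cardiac muscle, where it lies near the Z-disc and T-tubules and binds actin and alpha-actinin. The deposited table lists its span at chr10:116482479-116483303 on the plus strand of mm9, which is shorter than its listed length of 1428 bases. It had 44.4, 32.5 and 39.9 CPM in controls 2, 4 and 6. In mutants 5 and 7 it stood at 7.63 and 5.43 CPM. Both mutants lay far below the lowest control, control 4, and the groups did not overlap. Its log2 fold change was -2.57 ± 0.20 (SE), a 5.95-fold fall, with an edgeR adjusted p of 0.0016. The 95% interval put the mutant level between 0.120 and 0.235 of the control level. The fall ranked 41st among the log2 fold changes of all tested genes, counted from the most negative. These values rest on 1936 to 2619 counts per control library and on 596 and 371 counts in the mutants. In the authors' deposited table the log2 ratio of Lrrc10 was -2.58.

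The stretch of DNA before the Lrrc10 start is shown because the homeodomain protein removed in the mutants is known to bind sites with the core AAGTG. In RefSeq (GRCm38.p6) the 250 bases upstream of the start lie at chr10:117045091-117045340, plus strand. Here and in the sequences further on, the letters run 5′ to 3′ toward the gene, and capitals mark the motifs searched on both strands. Besides AAGTG, the search covered the letters GATAA, which hold the core of GATA factor sites. It also covered CATTCC, the core of TEAD factor sites.
Lrrc10: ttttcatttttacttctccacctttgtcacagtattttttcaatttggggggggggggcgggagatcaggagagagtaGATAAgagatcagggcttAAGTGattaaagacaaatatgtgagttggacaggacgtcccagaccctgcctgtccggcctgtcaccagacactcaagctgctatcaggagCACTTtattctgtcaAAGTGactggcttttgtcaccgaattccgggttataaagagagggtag
AAGTG or its complement stood at 3 places, beginning 154, 63 and 48 bases before the start, and GATAA stood once, beginning 172 bases before it. None of these matches overlapped another. Of 32851 RefSeq promoter windows of the same length, 40.7% held at least 1 AAGTG on either strand and 2.04% held 3 or more. GATAA stood in 22.6% of these windows. A match is a description of letters, and no binding was measured in these libraries. Among the 10 genes, 7 were matched in the promoter table (Lrrc10, Myoz2, Xirp2, Ankrd1, Ankrd2, Ankrd23 and Csrp3), and Myoz1, Xirp1 and Tcap were not.

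Among the 5 genes whose profile over the 5 libraries was most like that of Lrrc10 were Tm4sf4, Slc12a8, Adm and Atp2c2. Likeness was the Euclidean distance between log2 CPM values centred on each gene's own mean, which lay between 0.37 and 0.51 for these genes. Adm encodes adrenomedullin, a secreted vasodilator peptide. It had 56.9, 47.7 and 45.3 CPM in controls 2, 4 and 6, against 8.28 and 8.93 CPM in the mutants. Both mutants lay far below the controls. Tm4sf4 and Atp2c2 were scarce, with means of 0.46 and 0.57 CPM in the controls. The log2 fold changes of the named genes ran from -3.21 for Tm4sf4 to -2.51 for Slc12a8, on either side of that of Lrrc10. As these genes were picked by likeness to Lrrc10 in the same libraries, falls of similar size follow from the choice.

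The myozenins (calsarcins) bind calcineurin, alpha-actinin, telethonin and filamin C at the Z-disc. Myoz2 is the form of heart and slow skeletal muscle, and Myoz1 is the form best known from fast skeletal muscle. Both rose. The deposited table lists Myoz2 at chr3:122709301-122737185 and Myoz1 at chr14:21468600-21474570, both on the minus strand of mm9. Myoz2 had 299, 287 and 295 CPM in controls 2, 4 and 6, a narrow range, against 442 CPM in mutant 5 and 406 CPM in mutant 7. Every mutant value lay above every control value. The fitted change on the log2 scale was 0.53 ± 0.07 (SE), or 1.45-fold, with an edgeR adjusted p of 0.0041. Myoz1 stood at 13.3, 10.5 and 12.3 CPM in the controls, against 17.6 and 18.9 CPM in the mutants. Again the groups did not overlap, with control 4 the lowest library. Its log2 fold change was 0.60 ± 0.11 (SE), or 1.51-fold, with an edgeR adjusted p of 0.018. The Myoz1 call was lost without control 4, control 6 or mutant 7, with edgeR adjusted p of 0.062, 0.056 and 0.068.

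Within each library the myozenin genes were also compared with each other. Per kilobase of the listed length, Myoz1 stood at 0.128, 0.106 and 0.121 of the level of Myoz2 in controls 2, 4 and 6. The ratio was 0.115 in mutant 5 and 0.134 in mutant 7. The groups overlapped, and the log2 of the ratio differed by 0.07 between group means (p = 0.7, exact two-sided permutation test over the 5 libraries). With 2 against 3 libraries this exact permutation test cannot go below p = 0.1. Mean ratios were 0.118 ± 0.011 (SD, n = 3) in the controls and 0.1246 ± 0.014 (SD, n = 2) in the mutants. The ratios of related genes were chosen after their values were seen.

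Xin proteins are actin-binding repeat proteins of striated muscle that lie at the intercalated disc and at the ends of myofibrils. The table lists Xirp2 at chr2:67314867-67364308 on the plus strand and Xirp1 at chr9:119925144-119928933 on the minus strand of mm9. Xirp2 had 12.9, 11.4 and 11.8 CPM in controls 2, 4 and 6, against 17.8 CPM in mutant 5 and 24.5 CPM in mutant 7. Mutant 7 was the highest library, and both mutants lay above the controls. The log2 fold change of Xirp2 was 0.81 ± 0.14 (SE), or 1.76-fold, with an edgeR adjusted p of 0.013. The call was lost without control 4 or control 6, with edgeR adjusted p of 0.065 and 0.055. Xirp2 shares 168 exonic bases with Gm13601 on the opposite strand, which has 0 counts in the table. The sources used here do not say whether reads were counted by strand.

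Xirp1 was the more abundant Xin gene, and its values went the other way. It had 171, 162 and 190 CPM in controls 2, 4 and 6, against 157 and 143 CPM in the mutants. The mutants lay just below the lowest control. With a log2 fold change of -0.22 ± 0.08 (SE) it did not pass (adjusted p = 0.19, edgeR), and the 95% interval of the fold ran from 0.75 to 0.98. Per kilobase, the level of Xirp2 was 0.0275, 0.0258 and 0.0226 of that of Xirp1 in controls 2, 4 and 6. In mutants 5 and 7 this ratio was 0.0413 and 0.0628. The mean ratio went from 0.0253 ± 0.0025 (SD, n = 3) to 0.0520 ± 0.015 (SD, n = 2), a difference of 1.01 on the log2 scale. Its exact two-sided permutation p was 0.1, the smallest this design allows, and 0.15 after Benjamini-Hochberg adjustment over the 3 ratios tested.

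The upstream stretches of Myoz2 and Xirp2 are shown as those of genes that rose, for comparison with that of Lrrc10. They lie at chr3:123034988-123035237 on the minus strand and chr2:67445752-67446001 on the plus strand of GRCm38.p6 (RefSeq).
Myoz2: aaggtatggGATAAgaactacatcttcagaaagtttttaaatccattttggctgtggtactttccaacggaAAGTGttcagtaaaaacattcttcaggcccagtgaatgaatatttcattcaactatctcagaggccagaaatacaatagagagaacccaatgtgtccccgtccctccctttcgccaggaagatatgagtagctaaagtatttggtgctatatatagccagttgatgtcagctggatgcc
Xirp2: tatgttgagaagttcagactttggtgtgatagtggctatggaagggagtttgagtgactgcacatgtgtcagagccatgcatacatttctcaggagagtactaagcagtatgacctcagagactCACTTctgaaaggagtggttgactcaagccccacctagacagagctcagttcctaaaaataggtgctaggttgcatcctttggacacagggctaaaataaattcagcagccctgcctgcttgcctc
Each held 1 AAGTG or its complement, beginning 179 bases before the start in Myoz2 and 126 bases before it in Xirp2. At least 1 such match stood in the 40.7% of windows given above. Myoz2 also held GATAA once, and the letters CATTCC were in neither window. AAGTG or its complement also stood in 1 window of Ankrd23, which rose, and in 1 window of Csrp3, which did not pass. The window of Ankrd2 held no match to it.

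**Figure D2:**
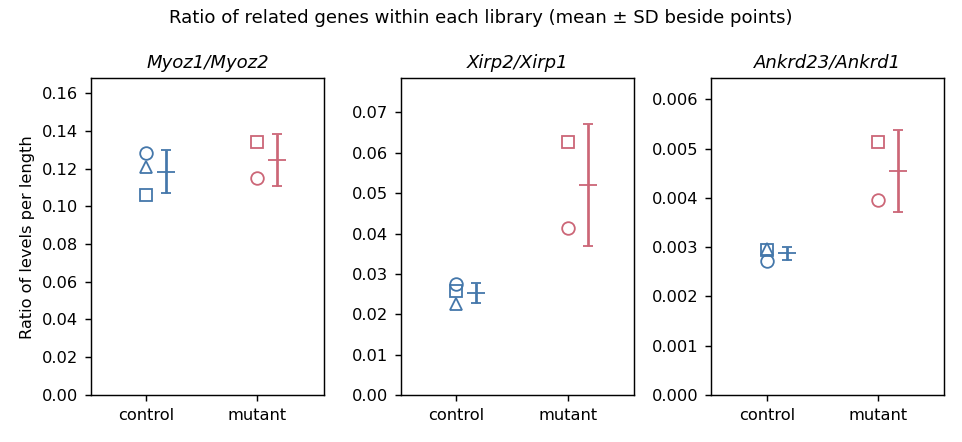
Ratio of the levels per kilobase of related genes within each library (circles, squares and triangles; blue, controls; red, mutants), with the group mean ± SD beside the points. The Myoz1 to Myoz2 ratio overlaps between groups, while the Xirp2 to Xirp1 and Ankrd23 to Ankrd1 ratios are higher in both mutants than in every control.

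The muscle ankyrin repeat proteins bind the titin segment called N2A together with other partners. Ankrd1 (CARP) is the cardiac form, is induced by stretch and wall stress in many settings, and is a common target of YAP and TEAD. Its listed span in mm9 is chr19:36187197-36194271 on the minus strand. It was the most abundant of the 10 genes per kilobase. Ankrd1 had 2867, 3352 and 2992 CPM in controls 2, 4 and 6, against 3060 CPM in mutant 5 and 3343 CPM in mutant 7. The groups overlapped. The fitted change on the log2 scale was 0.06 ± 0.09 (SE), with an edgeR adjusted p of 0.78. The 95% interval of the fold ran from 0.90 to 1.21, so a rise of the size seen in Xirp2 lay outside it.

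The upstream stretch of Ankrd1, at chr19:36119845-36120094 on the minus strand of GRCm38.p6 (RefSeq), is shown because Ankrd1 is known as a target of TEAD factors and did not pass the test here.
Ankrd1: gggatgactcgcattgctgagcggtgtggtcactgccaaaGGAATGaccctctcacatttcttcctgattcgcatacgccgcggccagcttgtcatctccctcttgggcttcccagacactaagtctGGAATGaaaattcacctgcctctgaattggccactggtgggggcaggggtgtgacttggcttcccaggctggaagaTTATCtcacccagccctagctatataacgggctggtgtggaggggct
It held CATTCC as its complement at 2 places, beginning 210 and 123 bases before the start, and the complement of GATAA beginning 47 bases before it. Of all RefSeq windows of this length, 12.6% held CATTCC at least once and 1.02% held it 2 or more times. The letters AAGTG were not in this window.

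Ankrd23 (DARP), a less abundant member of the family known from skeletal muscle and heart, had 10.1, 12.7 and 11.5 CPM in controls 2, 4 and 6. In mutants 5 and 7 it stood at 15.6 and 22.2 CPM. Both mutants lay above the controls, and mutant 7 was again the higher. The listed span is chr1:36588391-36592553 on the minus strand of mm9. Its log2 fold change was 0.73 ± 0.16 (SE), or 1.66-fold, with an edgeR adjusted p of 0.042. This was the least firm of the 5 calls. It was lost without control 2, control 4, control 6 or mutant 7 (edgeR adjusted p of 0.13, 0.077, 0.12 and 0.13), and the authors' deposited table gives Ankrd23 an adjusted p of 0.115. In GENCODE vM21, Ankrd23 shares 2109 of its 2697 exonic bases with Gm42417 on the same strand, so reads of those bases cannot be told apart; Gm42417 was not analysed here. Relative to Ankrd1 per kilobase, Ankrd23 went from 0.0029 ± 0.0001 (SD, n = 3) to 0.0045 ± 0.0008 (SD, n = 2). That ratio had an exact two-sided permutation p of 0.1 and an adjusted value of 0.15.

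Ankrd2 (ARPP), the MARP of slow skeletal muscle, was close to the limit of detection in all 5 libraries. It is listed at chr19:42110538-42119497 on the plus strand of mm9. It had 5, 9 and 11 counts in controls 2, 4 and 6 and 22 and 17 counts in mutants 5 and 7. Both mutants lay above the controls, but the log2 fold change of 0.93 ± 0.49 (SE) did not pass (adjusted p = 0.33, edgeR). The 95% interval of the fold, 0.87 to 4.15, covers both no change and a rise larger than that of Xirp2.

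Csrp3 (muscle LIM protein) and Tcap (telethonin, which caps titin at the Z-disc) form part of a proposed stretch sensor of cardiac muscle. In mm9 Csrp3 is listed at chr7:56086000-56094902 on the minus strand and Tcap at chr11:98245161-98245859 on the plus strand. Csrp3 was the second most abundant of the 10 genes. It had 1525, 1658 and 1552 CPM in controls 2, 4 and 6, against 1357 CPM in mutant 5 and 1269 CPM in mutant 7. Both mutants lay below the controls. Its log2 fold change of -0.27 ± 0.08 (SE) did not pass in edgeR (adjusted p = 0.087), while DESeq2 gave it an adjusted p of 0.0074. DESeq2 called 10.8% of the genes it tested, 5.09% as higher and 5.71% as lower, and with it the 10 genes held 4 rises and 2 falls. By the authors' deposited table its adjusted p was 0.157.

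Tcap had 113, 101 and 94.5 CPM in controls 2, 4 and 6, against 139 CPM in mutant 5 and 113 CPM in mutant 7. Mutant 5 was the highest library, while mutant 7 lay within the range of the controls. The log2 fold change was 0.29 ± 0.11 (SE) and did not pass (adjusted p = 0.18, edgeR). The 95% interval of the fold ran from 1.03 to 1.46.

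**Figure D3:**
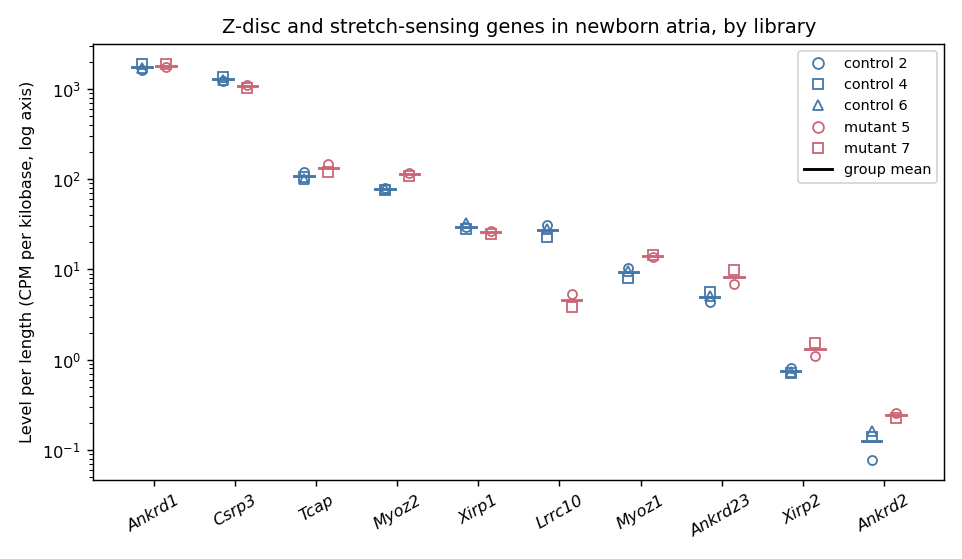
Levels of the 10 genes per kilobase of listed length, in CPM per kilobase on a log axis, by library (blue, controls; red, mutants; bars, group means). The genes are ordered by their mean in the controls, from Ankrd1 at 1740 to Ankrd2 at 0.126, and only Lrrc10 drops past its neighbours in the mutants.

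Levels per kilobase differed widely in the controls. The order was Ankrd1 (1740 ± 143 CPM per kilobase, SD, n = 3), Csrp3 (1281 ± 57.0), Tcap (108 ± 10.2), Myoz2 (78.5 ± 1.63), Xirp1 (29.8 ± 2.45), Lrrc10 (27.3 ± 4.20), Myoz1 (9.30 ± 1.08), Ankrd23 (5.01 ± 0.59), Xirp2 (0.753 ± 0.047) and Ankrd2 (0.126 ± 0.044). Only Xirp1 and Lrrc10 overlapped as neighbours in this order; each other neighbouring pair had control values that did not overlap. In the mutants Lrrc10 went from the sixth place to the eighth, at 4.58 ± 1.09 CPM per kilobase (SD, n = 2). Myoz1 and Ankrd23 then stood above it, at 14.1 ± 0.70 and 8.30 ± 2.04 CPM per kilobase (SD, n = 2). The other 7 genes kept their places. Ankrd1, Csrp3, Tcap and Myoz2 filled the top of the order in both groups.

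Other genes of the Z-disc and its partners moved in both directions. Of 50 listed genes 49 were tested; 6 rose, 5 fell and 38 did not pass, which is 12.2% higher and 10.2% lower beside 3.02% and 3.57% of all tested genes. Their median log2 fold change was 0.05, against 0.01 over all tested genes. Of the genes that rose, Ldb3 (Cypher) and Flnc (filamin C) bind the myozenins. Ldb3 had 873, 802 and 852 CPM in controls 2, 4 and 6, against 1085 CPM in mutant 5 and 1059 CPM in mutant 7. Flnc stood at 360, 347 and 395 CPM in the controls, against 474 and 464 CPM in the mutants. Both mutants lay above every control for each gene, as in 18.6% of all tested genes. The log2 fold changes were 0.35 ± 0.07 (SE) for Ldb3 and 0.35 ± 0.08 for Flnc. Sorbs2, an adaptor at Z-disc and intercalated disc, rose by 0.61 ± 0.08 from 316 ± 8.37 CPM (SD, n = 3). The remaining rises were Synpo2 (synaptopodin 2, 0.40 ± 0.06), Pdlim7 (enigma, 0.43 ± 0.09) and Des (desmin, 0.35 ± 0.07). Alpha-actinin itself, Actn2, stood at 1252, 1112 and 1221 CPM in the controls, against 1358 and 1257 CPM in the mutants, and did not pass (adjusted p = 0.44, edgeR).

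The 5 genes that fell included Lrrc39, another leucine-rich repeat gene, whose product (myomasp) is known from the M-band at the centre of the sarcomere. Lrrc39 had 56.7, 54.0 and 53.4 CPM in controls 2, 4 and 6, against 30.3 CPM in mutant 5 and 29.0 CPM in mutant 7. The fitted change on the log2 scale was -0.88 ± 0.07 (SE), with an edgeR adjusted p of 5.9e-04. Murc, also called Cavin4, encodes a muscle cavin of caveolae and T-tubules and fell by 1.49 ± 0.22 on the log2 scale. It stood at 24.3, 25.4 and 29.7 CPM in the controls, against 7.19 and 11.7 CPM in the mutants. Pdlim4 fell by 0.77 ± 0.09, Cmya5 (myospryn, which binds alpha-actinin and desmin) fell by 0.65 ± 0.09, and the LIM gene Fhl1 fell by 0.43 ± 0.11. For each of these 5 genes both mutants lay below every control, as in 19.2% of all tested genes. Without control 4 the list had 3 rises and 3 falls, without control 6 it had 3 rises, and without control 2 it had 2. Rises over all genes went from 538 to 203, 327 and 223 in these settings, and falls from 636 to 331 without control 4. Ldb3, Flnc and Des had log2 fold changes of 0.31 to 0.41 whichever library was left out, but did not keep their calls. Ldb3 and Des did not pass when any 1 control was left out (edgeR adjusted p of 0.074 to 0.14). Flnc and Murc did not pass without control 2 or control 4. Of the fits that leave out a control, Pdlim7 did not pass without control 2 or control 6, nor Fhl1 without control 4 or control 6. Fhl1 did not pass with limma-voom either (adjusted p = 0.052). Without mutant 5 and without mutant 7, the log2 fold changes were 0.36 and 0.49 for Pdlim7. They were -0.52 and -0.36 for Fhl1. With all libraries Fhl1 had an edgeR adjusted p of 0.048. Genes on the opposite strand overlap exons of Lrrc39 (1050 and 820 bases), Cmya5 (2451), Sorbs2 (1051) and Des (220). Des is also in the smooth muscle marker list used further on.

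Genes known to respond to stretch or load were listed separately. All 25 listed genes were tested, of which 4 rose, 3 fell and 18 did not pass. That is 16% higher and 12% lower, beside 3.02% and 3.57% of all tested genes. Their median log2 fold change was 0.34, against 0.01 over all tested genes. Edn1, which encodes the secreted peptide endothelin 1, rose by 1.26 ± 0.14 (SE) on the log2 scale. Ctgf, a matricellular YAP target, had 90.4, 88.5 and 109 CPM in controls 2, 4 and 6, against 193 CPM in mutant 5 and 210 CPM in mutant 7. It rose by 1.07 ± 0.10, and it shares 665 exonic bases with Gm15270 on the opposite strand. Cyr61, its close relative, had a log2 fold change of 1.05 ± 0.23 that did not pass (adjusted p = 0.071, edgeR). Ankrd1 belongs with these as a textbook stretch and YAP target and stood at the values given above; the difference between its change and that of Ctgf was not tested. Hbegf, an ErbB ligand, rose by 0.63 ± 0.11.

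The 3 falls of that list were the natriuretic peptide gene Nppb, whose product is a standard marker of wall stress, and the flow-responsive factor genes Klf4 and Klf2. Nppb had 415, 527 and 474 CPM in controls 2, 4 and 6, against 94.6 CPM in mutant 5 and 121 CPM in mutant 7. Its log2 fold change was -2.13 ± 0.15 (SE), with an edgeR adjusted p of 6.6e-04. Klf4 fell by 0.91 ± 0.09 and Klf2 by 0.54 ± 0.09. The calcineurin feedback gene Rcan1 stood at 86.3 to 91.2 CPM in the controls, against 83.4 and 76.2 CPM in the mutants, and it did not pass (adjusted p = 0.28, edgeR). The channel genes Piezo1 and Piezo2, listed in the table under the older symbols Fam38a and Fam38b, did not pass either. The rises numbered 7 without control 6 and 7 without mutant 5, where rises over all genes numbered 327 and 907. The falls numbered 3 whichever library was left out.

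**Figure D4:**
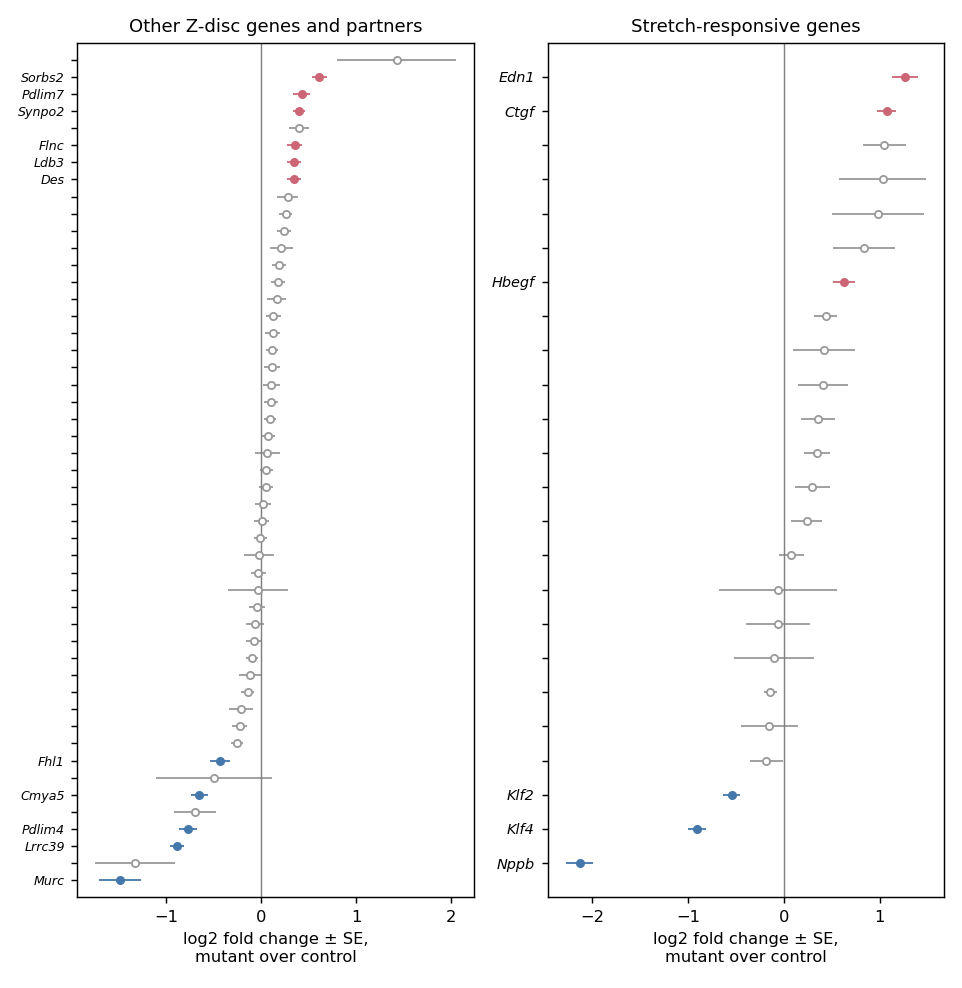
Log2 fold change ± SE, mutant over control, of further Z-disc and partner genes (left) and stretch-responsive genes (right), with names beside those that passed the test. Filled red points rose and filled blue points fell at adjusted p under 0.05; grey open points did not pass. Not every listed gene is drawn on the right. Murc at -1.49 is the lowest point on the left, and Nppb at -2.13 is the lowest on the right.

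Several of the 10 genes are also expressed in skeletal muscle, so markers of that tissue and of the ventricle are given beside them. Of 18 skeletal muscle markers, 13 were tested, 1 rose and 2 fell, and the list summed to 790.5 to 1076 CPM in the controls and to 1899 and 1999 CPM in the mutants. Tnnt3 had 32.7 to 88.5 CPM in the controls, against 1020 and 1084 CPM in the mutants. Without Tnnt3 the sum was 758 to 987 CPM in the controls and 880 and 915 CPM in the mutants, and most of it was Myl1. Myod1 was at 0 in every library, Myf5 at most at 0.02 CPM, and the fast myosin genes Myh1, Myh2 and Myh4 stood at 0.69 to 2.73 CPM with no call. Other genes of the list were present in every library: Myh8, the perinatal skeletal myosin, at 43.3 to 80.3 CPM, Tnni2 at 17.1 to 26.2 CPM and Myl1 at 555 to 773 CPM. Acta1, which heart muscle also expresses, had means of 81.0 CPM in the controls and 159.6 CPM in the mutants and did not pass (adjusted p = 0.39, edgeR). The 2 falls were Pvalb and Actn3 (log2 fold changes of -1.80 and -0.97). The calls of this list and of the ventricular list stand beside 3.02% of all tested genes higher and 3.57% lower. The ventricular list summed to 2110 to 2681 CPM in the controls and to 2901 and 2511 CPM in the mutants, with Hey2 and Lbh higher and Gja3, Cited1 and Kcne1 lower of 10 genes. Most of that sum was Myh7, and without Myh7 it was 264 to 416 CPM in the controls, against 286 and 253 CPM in the mutants. Myl3 had 124, 67.2 and 145 CPM in controls 2, 4 and 6, against 22.3 and 15.4 CPM in the mutants. Both mutants lay below every control for Myl3, which did not pass (adjusted p = 0.076, edgeR), and also for the scarce Irx4. Myl2 was highest in control 6, at 95.8 CPM, against 8.26 to 22.3 CPM in the other 4 libraries. The changes of Myoz1, Xirp2 and Ankrd23 without control 6 are given above, and those of Lrrc10 and Myoz2 were -2.55 and 0.54 on the log2 scale. The part of these tissues in the values was not tested.

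The smooth muscle list summed to 1722 to 1936 CPM in the controls and to 3483 and 3037 CPM in the mutants, and 3 of its 9 genes rose (Acta2, Des and Synm). Over all tested genes, 3.02% rose. Acta2 had a mean of 411 ± 39.0 CPM (SD, n = 3) in the controls and 1468 ± 318 CPM (SD, n = 2) in the mutants. Without Acta2 the sum was 1310 to 1504 CPM in the controls and 1790 and 1794 CPM in the mutants. Acta2 is also expressed by immature heart muscle cells, and Des by heart muscle in general. Myh11, a defining smooth muscle gene, stood at 6.51, 9.14 and 2.03 CPM in the controls, against 29.7 and 27.7 CPM in the mutants, and did not pass (adjusted p = 0.19, edgeR). Of the 9 genes of this list, 7 had both mutants above all controls, as did 18.6% of tested genes. Tagln and Cnn1 overlapped between the groups, and Smtn was 1.07-fold higher, with no call (edgeR adjusted p of 0.52, 0.55 and 0.40). Synpo2, Flnc, Pdlim7 and Des, which smooth muscle also expresses, were higher in both mutants too, though Des is itself 1 of these markers. The part of smooth muscle in those rises was not tested. The blood list summed to 928 to 1186 CPM in the controls and to 1447 and 1414 CPM in the mutants, and the endothelial list to 1713 to 1888 CPM and to 1905 and 2246 CPM. In each list 1 of 8 genes rose, beside 3.02% of all tested genes: Hba-a1 by 0.48 and Tie1 by 0.33 on the log2 scale. Most of the blood sum was the haemoglobin genes Hba-a1, Hbb-b1 and Hbb-b2. The macrophage gene Csf1r had a log2 fold change of 0.05 and did not pass (adjusted p = 0.85, edgeR). The neural list summed to at most 17.98 CPM in any library, with no call among 6 genes.

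**Figure D5:**
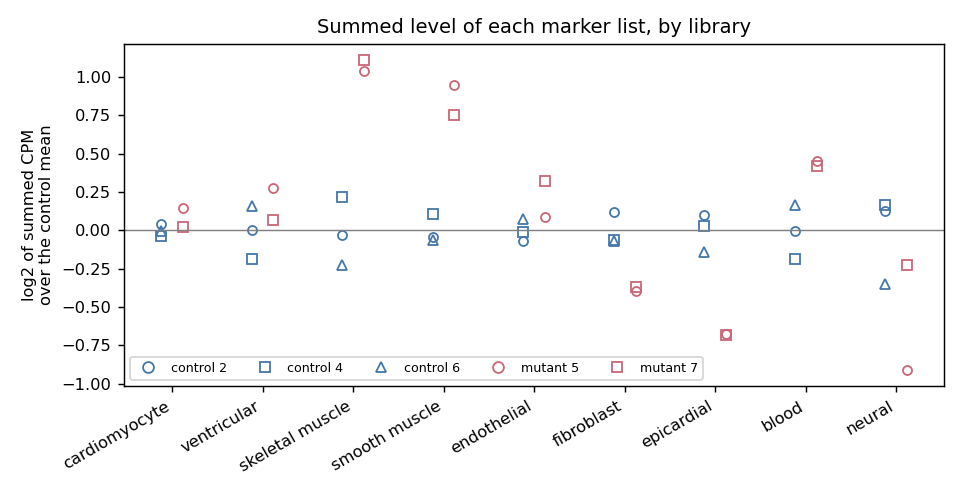
Summed CPM of each marker list by library, as the log2 over the control mean (blue, controls; red, mutants). The cardiomyocyte list is nearly level as a sum, though 1 of its 12 tested genes (Cox6a2) fell. The skeletal muscle, smooth muscle, endothelial and blood lists are higher and the fibroblast and epicardial lists lower in both mutants. Without Tnnt3 the skeletal muscle sums of the mutants (880 and 915 CPM) lie within those of the controls (758 to 987 CPM). Most of these remaining sums is Myl1 (555 to 773 CPM).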

How the data were processed

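RNA of atrial tissue was sequenced from 3 control and 2 mutant libraries. The deposited table holds the authors' raw counts for every gene in each library, together with RPKM values pooled to 1 value per group, a log2 ratio of mutant over control, and a p-value and adjusted p-value per gene. The submitters' processing notes name TopHat2 2.0.4, HTSeq 0.5.4p3, DESeq and the mm9 build, without their roles. The no_feature and ambiguous entries (3.97% to 6.03% and 2.31% to 3.18% of counts) were left out of totals and tests. Genes filtered by filterByExpr (minimum count 10, minimum total 15) were tested with edgeR 4.0.16 in R 4.3.3 (TMM, robust quasi-likelihood fit, two-sided, no covariate, Benjamini-Hochberg over 17835 genes, threshold 0.05). Fold changes use a prior count of 0.125; SE is the fold change over the square root of F, and 95% intervals are not adjusted for the number of genes. CPM use TMM-scaled totals; levels per kilobase divide CPM by the deposited gene length, since the authors' RPKM are 1 value per group. With 2 against 3 libraries an exact permutation p cannot go below 0.1. Libraries of 1 group differed by more than sampling noise, so none was a copy. Chi-square per degree of freedom was 19.9 to 33.2 between controls and 84.9 between mutants 5 and 7. Pairs of a control and a mutant stood at 79.9 to 122, so the value of the mutant pair lay within that range. The fit was tested on simulated counts. Alternatives were DESeq2 1.42.0, limma-voom (limma 3.58.1), other scalings and filters, sex (read from Xist and Ddx3y) as a covariate and leaving out each library. By Xist and Ddx3y, control 4 and mutant 5 were male, and controls 2 and 6 and mutant 7 were female. Leaving out control 4 or either mutant therefore left 1 sex in that group. The members and lists were chosen with earlier results of these data known. Named genes were all 10 members and Nkx2-5, called genes of the Z-disc and stretch lists (at most 8 each way), abundant or called markers, the 5 genes nearest to Lrrc10, and genes that share exonic bases or a family with a member; not all are given in the text, and others named with values were chosen after their values were seen. Protein sequences were not used here. Shared exonic bases come from GENCODE vM21 (GRCm38), whose coordinates are not printed. A few genes of the lists and of the likeness ranking are counted but not reported here by name.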

Additional observations from a re-analysis of the deposited data

How the results depend on the processing

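Across 12 alternative settings (11 for Ankrd2, which the filter of at least 1 CPM in 2 libraries removed), Lrrc10 and Myoz2 passed in each, and Xirp1, Ankrd1, Ankrd2 and Tcap passed in none. Only Ankrd1 changed sign, and it was never called. Csrp3 passed with DESeq2 alone (-0.27), which raised the falls among the 10 genes to 2. Ankrd23 did not pass with limma-voom (0.70, adjusted p = 0.060) or with sex as a covariate (0.73, adjusted p = 0.082, edgeR). Leaving out 1 library gave log2 fold changes of -2.84 to -2.36 for Lrrc10, 0.51 to 0.67 for Myoz1, 0.47 to 0.59 for Myoz2, 0.56 to 1.03 for Xirp2, 0.45 to 0.96 for Ankrd23 and -0.32 to -0.22 for Csrp3; with 1 mutant library left, it is assumed to vary like the controls. Rises among the 10 genes then numbered 1 to 4 and falls 1. Rises and falls of the Z-disc and partner list numbered 2 to 7 and 3 to 6, and rises of the stretch list 3 to 7. Over all genes, 538 rose and 636 fell; leaving out 1 library gave 203 to 907 and 306 to 804, and DESeq2 gave 910 and 1022. The log2 difference of the Xirp2 to Xirp1 ratio lay between 0.71 and 1.31, that of Ankrd23 to Ankrd1 between 0.46 and 0.84, and that of Myoz1 to Myoz2 between -0.04 and 0.19; leaving libraries out of these ratios was chosen after seeing the data. Causes were not tested. Depth limits Ankrd2, with 64 counts in all. No paired analysis was possible because the groups share no replicate number.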
